A study of Rattus norvegicus with 2 samples.

Results

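The genes described here are 10 receptors and enzymes of purinergic signalling, the use of extracellular ATP, ADP, UDP and adenosine as messengers between cells. They are the ATP-gated channel genes P2rx4 and P2rx7, the P2Y receptor genes P2ry1, P2ry2, P2ry6, P2ry12 and P2ry13, the ectonucleotidase genes Entpd1 and Nt5e, and the adenosine receptor gene Adora2b. They were taken by symbol from the 22093 genes to which the platform's annotation gave a symbol of their own, and all 10 were found, on 14 probe sets. Their levels were measured in rat neural stem cells (NSCs), which came from whole brains of SD rat embryos at day 13.5 and had been grown as neurospheres for 10 days in serum-free medium with bFGF and EGF. The co-culture group then spent 14 days on top of ectodermal mesenchymal stem cells (EMSCs), taken at passage 3 from transgenic rats that express green fluorescent protein (GFP), in medium with 10% fetal bovine serum, and its NSCs were recovered by fluorescence-activated cell sorting. The mono-culture group, the control, spent 14 days without EMSCs. A separate medium for these 14 days and a sort are not given for it in the sources used here, and neither are the number of embryos and the sort gate. Each group is 1 sample on 1 array, so the differences below have no replicate check and cannot be tested. The EMSCs, the serum and the sort, all given for the co-culture group, cannot be told apart as sources of a difference.

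Extracellular ATP opens the P2X channels and, together with ADP, UTP and UDP, activates the G protein-coupled P2Y receptors. The enzyme CD39, encoded by Entpd1, removes phosphates from ATP and ADP to leave AMP, and CD73, encoded by Nt5e, turns AMP into adenosine, which acts on its own receptors. In the brain this system is best known from microglia, which sense ATP and ADP from damaged cells, and it also acts on astrocytes and neural progenitors.

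Of the 10 genes, 9 had a lower level in co-culture than in mono-culture and 1, Adora2b, had a higher one. Levels are log2 values, and each difference is the co-culture minus the mono-culture level. A gene was kept for counting if its higher level reached 4.97, the median over all genes and both arrays. All of the 10 genes did so except P2ry1. Of the 9 kept, 5 had levels at least 2-fold lower in co-culture: P2ry12, P2ry13, P2ry6, Nt5e and P2rx4. P2ry12, P2ry13, P2ry6 and P2rx7 reached 4.97 in mono-culture only, so a count over the kept genes favours lower levels. Of the 5 genes that reached 4.97 on both arrays 2 were lower by 2-fold or more, P2rx4 and Nt5e, against 2.96% of all genes that did so. Of the 9 kept, none was at least 2-fold higher (0 of 9). Among all 11849 kept genes 5.54% were lower by 2-fold or more and 5.04% were higher by as much. The median difference of the 9 genes was -1.59, against -0.06 over all kept genes, but it was -0.59 over the 5 genes that reached 4.97 on both arrays, -0.65 with levels below 4.97 raised to that value and 0 with levels below 6.64 raised. Between the arrays, 399 positive control probe sets had differences with a median of -0.16, an SD of 0.44 and a central 95% from -1.15 to 0.61. For 1153 negative controls, which are mostly dim, the median was -0.16, the SD 0.65 and the central 95% from -1.44 to 1.11, with 9.54% at least 2-fold lower. The differences of 5 of the 10 genes, P2rx7, P2ry1, P2ry2, Entpd1 and Adora2b, lay inside the range of the positive controls. The level that 95% of the negative control probe sets do not exceed was 6.64. It was exceeded by 1 of the 10 genes in co-culture, P2rx4, and by 4 in mono-culture, P2rx4, P2ry12, Nt5e and Entpd1. In bulk samples such as these, fewer cells of a type and less RNA per cell cannot be told apart.

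**Figure D1:**
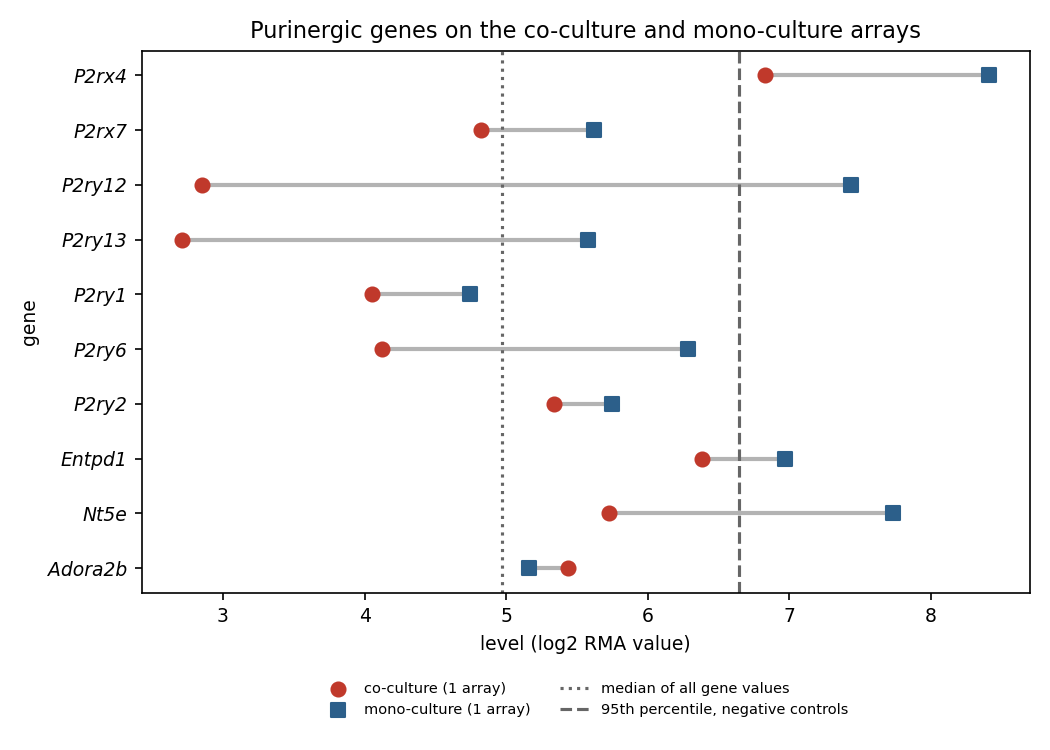
Level of each of the 10 genes (log2 RMA value, horizontal axis) on the co-culture array (circles) and the mono-culture array (squares), 1 array each, with no error bars because there are no replicates. The dotted line marks 4.97, the median of all gene values, and the dashed line 6.64, the 95th percentile of the negative controls. The longest line is that of P2ry12, and the circle lies right of the square for Adora2b alone.

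P2X receptors are cation channels that open when ATP binds. P2rx4 encodes a channel with high sensitivity to ATP that microglia and other macrophages carry in large part on their lysosomes. Its level was 6.83 in co-cultured cells against 8.41 in mono-cultured cells, a difference of -1.59, or 3.00-fold lower. The level in co-culture was above that of 95.6% of negative controls and the level in mono-culture above that of 98.5%, so both values of this gene were bright. P2rx7 encodes the channel that needs much higher ATP and that is known for starting the NLRP3 inflammasome in myeloid cells. Its level averaged 4.82 in co-cultured cells against 5.62 in mono-cultured cells, a difference of -0.80, short of 2-fold. The gene has 2 probe sets. The first read 5.01 in co-cultured cells against 5.61 in mono-cultured cells, a difference of -0.60, and the second read 4.63 in co-cultured cells against 5.63 in mono-cultured cells, which passes 2-fold by itself.

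P2Y12 and P2Y13 are closely related receptors for ADP that couple to inhibitory G proteins. P2ry12 is a standard marker of resting microglia, where the receptor directs their processes toward sites of ATP release, and it is also the ADP receptor of platelets. Its level was 2.85 in co-cultured cells against 7.43 in mono-cultured cells. The difference of -4.58, 23.9-fold lower, was the largest of the 10 genes in size as deposited and ranked 27 from the lowest among the 11849 kept genes. In co-culture P2ry12 lay above only 36.9% of the negative controls, whereas in mono-culture it lay above 97.3% of them. With levels below 6.64 raised to that value, the difference was -0.79, which is smaller in size than those of P2rx4 and Nt5e under the same setting, so both its size and its rank depend on the value given to dim levels.

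P2ry13 averaged 2.71 in co-cultured cells against 5.58 in mono-cultured cells, a difference of -2.87. Its 2 probe sets disagreed in size but not in direction. One read 2.64 in co-cultured cells against 4.69 in mono-cultured cells, and the other read 2.78 in co-cultured cells against 6.47 in mono-cultured cells. Their differences were -2.05 and -3.69, a gap of 1.64. The SD between probe sets of a gene was 0.26 over the 475 kept genes with several probe sets whose higher level reached 4.97. A gap and an SD are different measures. The dimmer probe set of P2ry13 did not reach 4.97, so this gene is not among the 475. P2ry13 was below 6.64 on both arrays, and with levels below 4.97 raised to that value its difference was -0.61.

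P2ry1 encodes the ADP receptor that couples to calcium release and is known from astrocytes and platelets. It had a level of 4.05 in co-cultured cells against 4.74 in mono-cultured cells, a difference of -0.69. Both values lay below the limit for keeping a gene, so P2ry1 is in none of the counts.

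P2Y6 is the receptor for UDP, which in microglia triggers the uptake of debris. The level of P2ry6 was 4.13 in co-cultured cells against 6.29 in mono-cultured cells, a difference of -2.16, or 4.47-fold lower. Both values lay below 6.64, and with levels below 4.97 raised to that value the difference was -1.32. P2ry2 encodes a receptor for ATP and UTP that many cell types carry. It averaged 5.34 in co-cultured cells against 5.75 in mono-cultured cells, a difference of -0.41. The probe set in the gene's own place on the chromosome differed by -0.60, and a second one that the platform places on an unplaced scaffold differed by -0.23. Levels of P2ry2 were thus much closer on the arrays than those of P2ry6.

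Of the enzyme pair that leads from ATP to adenosine, Nt5e passed 2-fold downward in co-culture, whereas Entpd1 did not. Entpd1, the gene for CD39, averaged 6.38 in co-cultured cells against 6.97 in mono-cultured cells, a difference of -0.59, short of 2-fold and inside the range of the positive controls. Its 2 probe sets gave -0.60 and -0.57, a gap of 0.03. Nt5e, the gene for CD73, which is also used as a surface marker of mesenchymal stem cells, had a level of 5.73 in co-cultured cells against 7.73 in mono-cultured cells. The difference was -2.00, or 4.01-fold lower, and it was -1.09 with levels below 6.64 raised to that value. Nt5e and P2rx4 were the only ones of the 9 kept genes that stayed at least 2-fold lower under that alternative.

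Adora2b encodes the adenosine receptor that needs the highest adenosine and that fibroblasts and other stromal cells carry. Its level was 5.44 in co-cultured cells against 5.16 in mono-cultured cells, a difference of 0.28. This is smaller than the SD of 0.44 between arrays of the positive controls, and both values lay below 6.64.

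**Figure D2:**
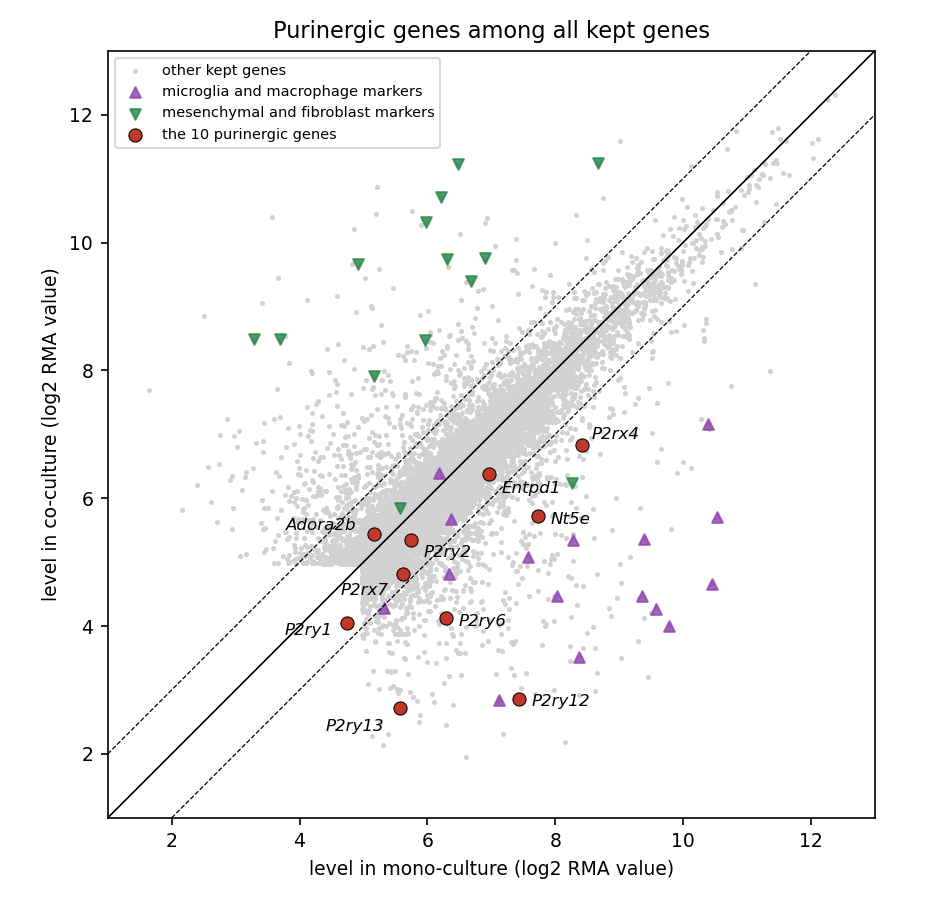
Level in co-culture (vertical axis) against level in mono-culture (horizontal axis), both log2 RMA values, for the kept genes (grey), the marker genes of microglia and macrophages (upward triangles), those of mesenchymal cells (downward triangles) and the 10 purinergic genes (circles with names, P2ry1 included although it was not kept). The solid line marks equal levels and the dashed lines 2-fold. P2ry12 at 2.85 in co-cultured cells against 7.43 in mono-cultured cells lies close to Ptprc (2.85 against 7.12) of the microglia and macrophage list. The other markers of that list lie further from it. Adora2b, P2ry2 and Entpd1 lie between the dashed lines.

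Markers of other cell types differed between the arrays as well. For the counts that follow, 5.54% of all kept genes were lower by 2-fold or more and 5.04% higher. Among all genes that reached 4.97 on both arrays 2.96% were lower by as much. Of 16 microglia and macrophage markers, all kept, 14 had levels lower by 2-fold or more in co-culture and 0 had levels higher by that much, with a median difference of -3.79. Of the 7 that reached 4.97 on both arrays 5 were lower by that much. The 2 markers within 2-fold were Tmem119, at 6.39 in co-cultured cells against 6.18 in mono-cultured cells, and Sall1, at 5.68 against 6.38. The sum of the log2 levels of all 16 was 78.1 in co-cultured cells against 133.1 in mono-cultured cells. Of the 16, 1 exceeded 6.64 in co-cultured cells against 12 in mono-cultured cells, and 0 were listed at 0. The differences of P2ry13, P2ry6 and P2rx4 were smaller in size than that median, and that of P2ry12 was larger. Of 14 mesenchymal and fibroblast markers, chosen without Nt5e, 12 had levels at least 2-fold higher in co-culture and 1, Eng, had a level at least 2-fold lower, with log2 levels that sum to 127.5 in co-cultured cells against 84.1 in mono-cultured cells. Of 8 kept astrocyte markers 7 were at least 2-fold lower, and the sum over all 10 on the array was 55.9 in co-cultured cells against 72.4 in mono-cultured cells. Of 6 kept neural stem cell markers 1, Fabp7, was at least 2-fold lower, and 4 of the 8 on the array exceeded 6.64 on each array, Sox2 at 8.69 in co-cultured cells against 8.83 in mono-cultured cells among them. All 9 kept oligodendrocyte lineage markers lay within 2-fold, and of neuronal and endothelial markers 2 of 6 and 1 of 3 kept were at least 2-fold lower. The part of these cell types in the differences of the purinergic genes was not tested.

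Nearest genes by levels on both arrays were sought among kept genes, leaving out provisional names (LOC, RGD and the like). Those nearest to P2ry12 were Lilrb4, Clec4a1 and Ptprc, at distances of 0.19, 0.26 and 0.31 on the log2 scale. Lilrb4 and Clec4a1 encode receptors of myeloid cells, and Ptprc encodes CD45, the surface phosphatase of leukocytes. Ptprc had a level of 2.85 in co-cultured cells against 7.12 in mono-cultured cells. The nearest to Adora2b were Krtap20-1, Slc35g2 and Nek2l1, with distances of 0.01 each. These distances cover only 2 arrays and compare probes of different genes, whose brightness can differ for technical reasons, so they describe values and nothing further.

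The other genes of the pathway were taken from 8 lists, with 60 genes on the array, the 10 included. Of the 39 kept, 11 had at least 2-fold lower levels in co-culture and 3 at least 2-fold higher ones, and the median difference was -0.42. Without the 10 genes, 30 were kept, with 6 (20.0%) lower by 2-fold or more and 3 (10.0%) higher by as much, against 5.54% and 5.04% of all kept genes. Their median difference was -0.24, and 21 of the 30 lay within 2-fold. Of the 23 that reached 4.97 on both arrays 2 were lower by 2-fold or more and 1 was higher by as much, against 2.96% and 3.06% of all such genes.

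Among the other P2X genes, P2rx5 was the only one kept, at 5.36 in co-cultured cells against 4.39 in mono-cultured cells, a difference of 0.97 that fell just short of 2-fold. P2rx1, P2rx2, P2rx3 and P2rx6 were dim on both arrays. The other P2Y genes, P2ry4, P2ry10 and P2ry14, were dim as well, with differences between -0.92 for P2ry14 and 0 for P2ry10. Among adenosine receptors, Adora1, the inhibitory receptor of neurons, differed by -0.42 and Adora2a, which is coupled to the stimulatory G protein, by -0.50. Both had a sign opposite to that of Adora2b, and all 3 kept adenosine receptor genes lay within 2-fold.

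The enzymes that break down ATP and ADP differed in both directions, with 2 of 9 kept genes past 2-fold upward and 1 past it downward. Of all kept genes 5.04% were higher and 5.54% lower by as much. The ecto-pyrophosphatase genes Enpp1 and Enpp3, whose products cut ATP straight to AMP and pyrophosphate, had the highest differences of the wider lists. Enpp1 had a level of 8.41 in co-cultured cells against 4.60 in mono-cultured cells, a difference of 3.81, and Enpp3 a level of 6.90 in co-cultured cells against 4.17 in mono-cultured cells, a difference of 2.73. In co-culture both exceeded 6.64, and in mono-culture both lay below 4.97, so they were kept through co-culture only. Enpp2, which encodes autotaxin, an enzyme that mainly makes lysophosphatidic acid, was 7.38 in co-cultured cells against 7.47 in mono-cultured cells. Entpd2 encodes an ATP-cleaving relative of CD39 known from rat astrocytes and mouse neural progenitors. Its level was 5.85 in co-cultured cells against 6.89 in mono-cultured cells. The difference of -1.04 only just passed 2-fold and lay inside the range of the positive controls, -1.15 to 0.61. The mainly intracellular members Entpd4, Entpd5 and Entpd7 differed by -0.49, -0.43 and 0.87. Besides Nt5e, the AMP-cleaving phosphatase genes Alpl and Acp3 were dim, so no other enzyme of that step was kept.

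Of 7 kept genes that clear adenosine, 1 was at least 2-fold lower and 0 were higher by as much, against 5.54% and 5.04% of all kept genes. Pnp, the phosphorylase that cleaves inosine and guanosine, had a level of 7.47 in co-cultured cells against 9.25 in mono-cultured cells, a difference of -1.78. The nucleoside transporter genes Slc29a1, Slc29a4 and Slc29a3 differed by 0.54, -0.52 and -0.38, and adenosine deaminase, Ada, by -0.35. Of 5 kept genes for ATP release, Gja1, which encodes the gap junction and hemichannel protein connexin 43, was the only one past 2-fold, at 7.15 in co-cultured cells against 6.11 in mono-cultured cells. Of all kept genes 5.04% were higher by 2-fold or more. The pannexin channel gene Panx1 differed by 0.38, and Slc17a9, which encodes the vesicular nucleotide transporter, by -0.47. Calhm2 and Lrrc8a, which code for further large-pore channels, differed by 0.12 and 0.00.

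Several genes of the inflammasome that P2X7 is known to engage had lower levels in co-culture. Of 7 kept, 4 were at least 2-fold lower, where 5.54% of all kept genes were, and 0 were higher by as much. All 4 lay below 4.97 in co-culture and were kept through mono-culture only. Of the 3 genes that reached 4.97 on both arrays, 0 passed 2-fold. Casp1, the protease that matures interleukin 1 beta, had a level of 3.59 in co-cultured cells against 6.48 in mono-cultured cells, a difference of -2.90. The cytokine genes Il1b and Il18 differed by -2.09 and -2.07 and the sensor Nlrp3 by -1.80. The adaptor Pycard differed by -0.69, the pore former Gsdmd by 0 and the redox regulator Txnip by -0.12. All of these except Txnip were below 6.64 on both arrays.

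**Figure D3:**
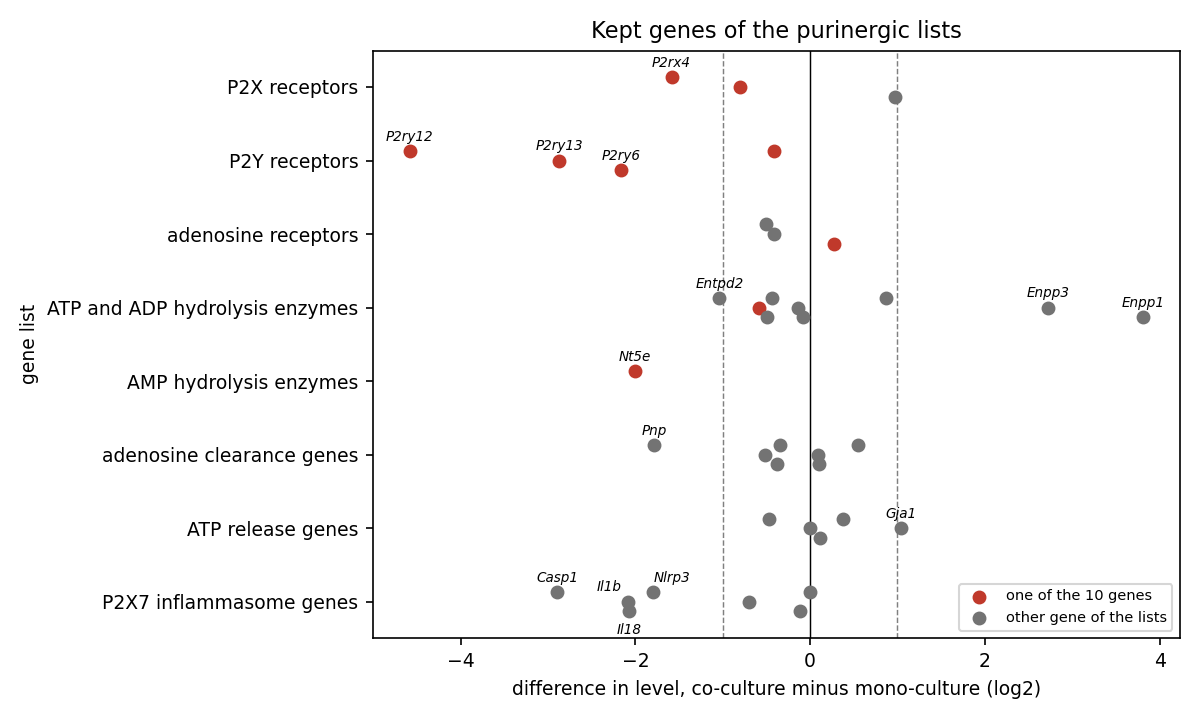
Difference in level, co-culture minus mono-culture (log2, horizontal axis), for each kept gene of the 8 purinergic lists (rows), with the 10 genes in red and the others in grey. Each point is 1 gene on 1 array a group, the vertical offsets within a row carry no value, and names are given at or beyond 2-fold (dashed lines). The lowest point is P2ry12 at -4.58 and the highest is Enpp1 at 3.81.

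Several of these genes sit next to each other in the genome, as ordered among protein-coding genes in the RefSeq annotation of the rat assembly GRCr8. P2ry13 and P2ry12 are neighbours on chromosome 2, and both had at least 2-fold lower levels in co-culture. P2rx4 and P2rx7 are neighbours on chromosome 12, with differences of -1.59 and -0.80. P2ry6 and P2ry2 are neighbours on chromosome 1, with differences of -2.16 and -0.41, so the genes of this pair were less alike. Enpp3 and Enpp1 are also neighbours on chromosome 1, as are Calhm2 and Calhm1, which differed by 0.12 and 0.33. Genes outside the pathway beside these did not all go the same way: Igsf10, next to P2ry12, differed by 2.43, Fchsd2, next to P2ry2, by -1.61, and Camkk2, next to P2rx4, by 0.08.

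RefSeq promoter windows of GRCr8, which run from 250 bases before to 50 bases after a transcript start, were matched for 8 of the 10 genes. No window was matched for P2ry12 and P2ry6, which were also at least 2-fold lower in co-culture. The windows of P2ry13, P2rx4 and Nt5e are shown because these genes had at least 2-fold lower levels in co-culture while their windows differ in base composition. The sequences run 5′ to 3′ on the gene's strand, with every CpG dinucleotide in capitals. The window of P2ry13 is chr2:145622735-145623034 on the minus strand, that of P2rx4 is chr12:39523040-39523339 on the minus strand, and that of Nt5e is chr8:98150675-98150974 on the plus strand.
P2ry13: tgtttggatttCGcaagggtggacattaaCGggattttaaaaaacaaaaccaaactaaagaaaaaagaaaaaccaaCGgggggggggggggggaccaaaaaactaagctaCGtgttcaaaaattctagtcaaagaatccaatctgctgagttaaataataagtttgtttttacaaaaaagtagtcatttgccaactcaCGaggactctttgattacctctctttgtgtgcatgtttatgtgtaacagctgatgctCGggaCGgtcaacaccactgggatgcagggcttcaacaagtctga
P2rx4: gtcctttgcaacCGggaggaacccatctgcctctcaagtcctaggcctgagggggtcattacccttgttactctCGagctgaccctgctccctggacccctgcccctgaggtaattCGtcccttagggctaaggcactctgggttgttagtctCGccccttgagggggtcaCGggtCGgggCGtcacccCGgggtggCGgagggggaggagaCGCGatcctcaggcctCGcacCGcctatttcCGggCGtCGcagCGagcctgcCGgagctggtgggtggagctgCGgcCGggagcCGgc
Nt5e: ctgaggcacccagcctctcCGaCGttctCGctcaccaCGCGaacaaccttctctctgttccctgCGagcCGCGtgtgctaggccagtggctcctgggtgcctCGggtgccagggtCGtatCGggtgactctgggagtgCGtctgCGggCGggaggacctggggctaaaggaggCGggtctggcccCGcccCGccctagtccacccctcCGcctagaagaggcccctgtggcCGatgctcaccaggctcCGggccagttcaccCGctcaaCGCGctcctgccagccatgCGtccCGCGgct

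The P2ry13 window holds 7 CpG sites and 40.7% G and C, against medians of 7 sites and 51.7% over 33469 windows of all genes. The P2rx4 window holds 21 CpG sites and that of Nt5e 26, more than 77.4% and 84.8% of all windows. Among the others, Entpd1 has 7 CpG sites, P2rx7 13, P2ry1 16, and P2ry2 and Adora2b 33 each. The CpG count of the P2ry13 window was thus average and only its G and C content was low, while the windows of P2rx4 and Nt5e were above the median in both. The genes with the most CpG sites, P2ry2 and Adora2b, were within 2-fold. So were P2rx7, P2ry1 and Entpd1, the last with 7 sites like P2ry13. A link between CpG sites and differences was not tested. The windows were searched on both strands for AGGAAGT, the core of sites for the myeloid factor PU.1, GGAAGTG, an ETS site that overlaps it in 6 letters, TGACTCA and TGANTCA, AP-1 sites of which the first is a case of the second, and TATAAA, the TATA box. Of the 8 windows 0 held any of them, while 8.41%, 9.86%, 4.63%, 7.33% and 14.2% of all windows did. This says only that these letters are not in these windows, and it does not cover P2ry12 and P2ry6.

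**Figure D4:**
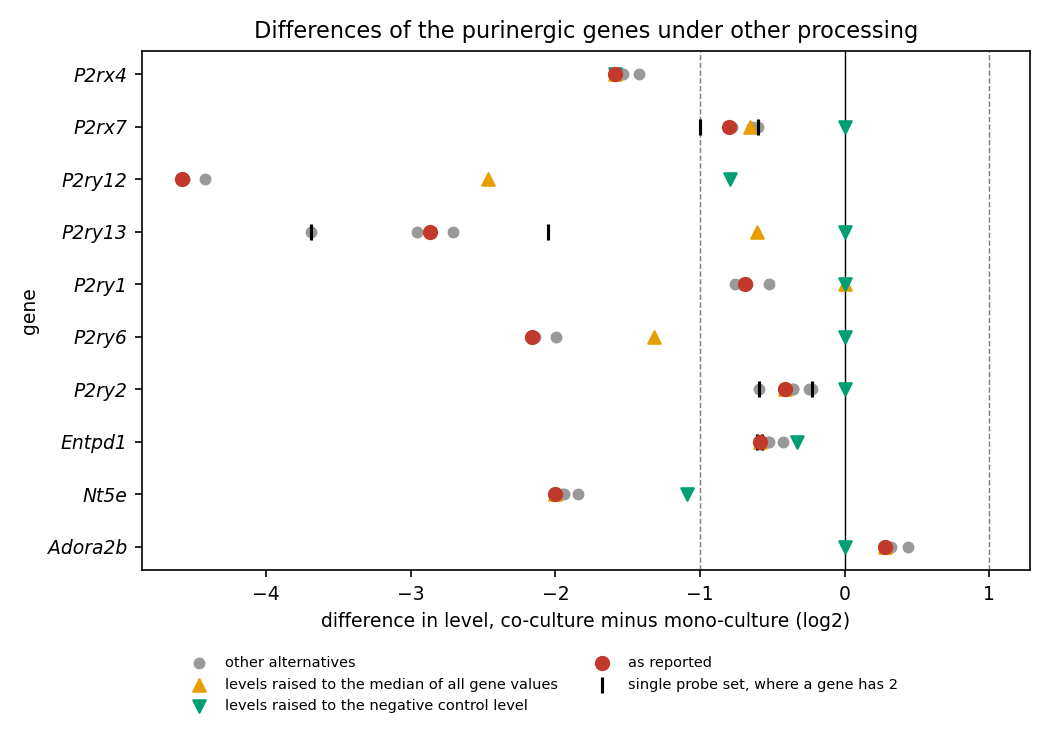
Difference of each of the 10 genes, co-culture minus mono-culture (log2, horizontal axis), as reported (red circles) and under other processing (grey circles), with dim levels raised to 4.97 (upward triangles) or to 6.64 (downward triangles). Vertical ticks are the separate probe sets of the 4 genes that have 2, and dashed lines mark 2-fold. P2rx4 stays between -1.59 and -1.42, whereas P2ry12 ranges from -4.58 to -0.79.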

How the data were processed

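RNA from 1 co-culture and 1 mono-culture sample was labelled with biotin and hybridised to a whole-transcript rat array, per the labels' protocols. Values were deposited as log2 levels that the authors made with RMA (background correction, quantile normalization between arrays and a summary per probe set), per the submitters' processing notes; the software is not given in the sources used here. That the scale is log2 was checked on the values, whose medians were 3.75 in co-culture and 3.72 in mono-culture. Quantile normalization hides a change that most genes share, and the number of arrays limits the precision. Scanner output was not used here.

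Of 70580 probe sets, 23446 have 1 gene symbol in the platform's annotation and 505 have several, which were left out. Probe sets were averaged per gene. No p-value was computed, and a gene past 2-fold was counted. The genes, lists and settings were chosen with earlier results of these data known. All 10 genes are named. Of the other lists, kept genes past 2-fold and up to 4 others are named, and of marker lists up to 4. Exceptions, picked with their values in view, are genes named as dim, Tmem119, Sall1, Sox2, Eng and Enpp2. Others are the Enpp3 and Calhm2 pairs, Igsf10, Fchsd2 and Camkk2. Protein sequences were not used here. The counting was tested on simulated data.

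Alternatives were median centring, quantile normalization and a loess fit with limma 3.58.1 in R 4.3.3, other filters, other rules for several probe sets, raised dim levels and other thresholds. Centring on positive controls and leaving out a probe set of P2ry2 were chosen after seeing the data. Tables were made in Python 3.11.15 with pandas 2.3.3 and numpy 2.4.6, and figures with matplotlib 3.10.9.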

Additional observations from a re-analysis of the deposited data

How the results depend on the processing

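Of 15 alternatives, up to 9 recomputed the difference of a gene, and none turned the sign of any of the 10 (0 reversed), although raised levels made some exactly 0. A difference was taken to have moved if it changed by more than 0.26, the SD between probe sets of a gene. Of 86 recomputed differences of single genes 72 moved by less and 14 by more, 13 of these with dim levels raised. The count of 5 genes at least 2-fold lower was 2 if both levels had to reach 4.97 (of 5 kept, 2.96% of all genes kept there), 3 with the filter at the 75th percentile or at 6.64 (of 4 kept each, 6.92% and 7.28% of all), and 2 with levels raised to 6.64 (1.59% of all). The median of -1.59 was -0.59 if both levels had to reach 4.97, -2.00 over genes with 1 probe set, -1.19 with no filter, -0.65 with levels raised to 4.97 and 0 with levels raised to 6.64. Of the wider lists the 11 genes at least 2-fold lower became 4 if both levels had to reach 4.97, 6 with the filter at the 75th percentile, 5 with that at 6.64, 3 with levels raised to 6.64 and 7 at 4-fold. They became 10 with quantile normalization, with the loess fit and when centred on the positive controls. The 3 at least 2-fold higher became 1 if both levels had to reach 4.97 or if levels were raised to 6.64, and 5 at 1.5-fold or when centred on the positive controls. The last setting moved the median of all kept genes to 0.10, with 529 lower and 739 higher in place of 657 and 597. Filters leave fewer genes and raised levels shrink differences by construction. No paired analysis was possible because each group has 1 sample.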

Other observations

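Some values are identical on both arrays to the last digit given. This holds for 4855 of the 70580 probe sets, 6.88% of them, and for 3 of the 60 genes of the wider lists, P2ry10 at 1.78, Alpl at 4.89 and Gsdmd at 5.79. It holds for 0 of the 14 probe sets of the 10 genes. These genes were chosen after their values were seen, and a difference of exactly 0 is given here as a feature of the deposited values.

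Panx3, a pannexin channel gene known from cartilage and skin, had a level of 4.15 in co-cultured cells against 3.07 in mono-cultured cells, a difference of 1.08. It was not counted among the genes at least 2-fold higher because both levels lay below 4.97, and it was chosen after its values were seen.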
